A study of Mus musculus with 10 samples.

Results

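The interferon-inducible Ifi200 genes, Aim2 and 4 further Ifi genes (Ifi27, Ifi30, Ifi35 and Ifi47) were followed in sorted spleen monocytes of mice with and without chronic lymphocytic leukaemia (CLL). The members were 10 genes, Ifi202b, Ifi203, Ifi204, Ifi205, Mndal, Aim2, Ifi27, Ifi30, Ifi35 and Ifi47, of 21946 genes named on the array. All probes that the platform's annotation assigns to them were taken, 19 of 46237, and 7 of the 10 genes had several. A probe was tested where its detection p, which sets the signal against the array's negative controls, was under 0.05 on at least 5 arrays. Of the 19 member probes 15 were tested, among 20241 tested probes in all, and every gene except Ifi202b had at least 1.

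All mice were C57BL/6, aged 3 months. The TCL1-AT group (5 samples) had received leukaemia cells from Eµ-TCL1 donors, in which an immunoglobulin enhancer drives the TCL1 oncogene in B cells, and was taken 6 weeks later. The WT group (5 samples) consisted of matched controls for which the labels give no transplantation. The WT samples are called pools, with no number of mice given, and the labels do not say whether each TCL1-AT sample was 1 mouse, so the p-values measure the spread between these samples only. Monocytes were sorted as lineage negative and CD11b+, with intermediate F4/80, low to intermediate CD11c and low MHC class II, and total RNA was hybridised to 1-colour Illumina mouse arrays. Values are background-corrected, quantile-normalized log2 signals, differences are TCL1-AT minus WT, and a probe was called at an adjusted p under 0.05 in limma's fit over all tested probes.

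Ifi200 genes encode PYHIN proteins, most of which join an N-terminal pyrin domain to a C-terminal HIN domain that binds DNA. The pyrin domain of Aim2 recruits the adaptor Asc to cytosolic double-stranded DNA and so activates caspase-1, whereas other members act in the nucleus or alongside the Sting pathway. In the mouse the genes lie in 1 cluster on chromosome 1, and many are induced by type I and type II interferon in myeloid cells. The other Ifi genes share the name for their induction by interferon and encode unrelated proteins.

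Ifi205 rose most among the members, with 5.06-fold more signal in TCL1-AT at its brightest probe. Mndal rose 1.64-fold, and outside the PYHIN genes the thiol reductase Ifi30 rose 1.46-fold and 1.65-fold at its 2 probes and Ifi35 rose 1.45-fold. Ifi203 fell 1.69-fold and Aim2 fell 1.36-fold, each at 1 probe. Ifi204, Ifi27 and Ifi47 did not pass the test at any probe, and Ifi202b was close to background in both groups. In all, 6 of the 15 tested member probes were called higher (40%) and 2 were called lower (13.3%). Of all 20241 tested probes 12.1% were called higher and 14.8% lower (27.0% in either direction), so the share of lower calls among the members was near that of the whole array. The groups did not overlap for 6 of the 15 member probes (40%), against 19.9% of all tested probes. The median difference was 0.33 for the member probes and 0.01 for all tested probes. At an unadjusted p under 0.05, 12 of the 15 passed, against 38.7% of all tested probes.

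**Figure D1:**
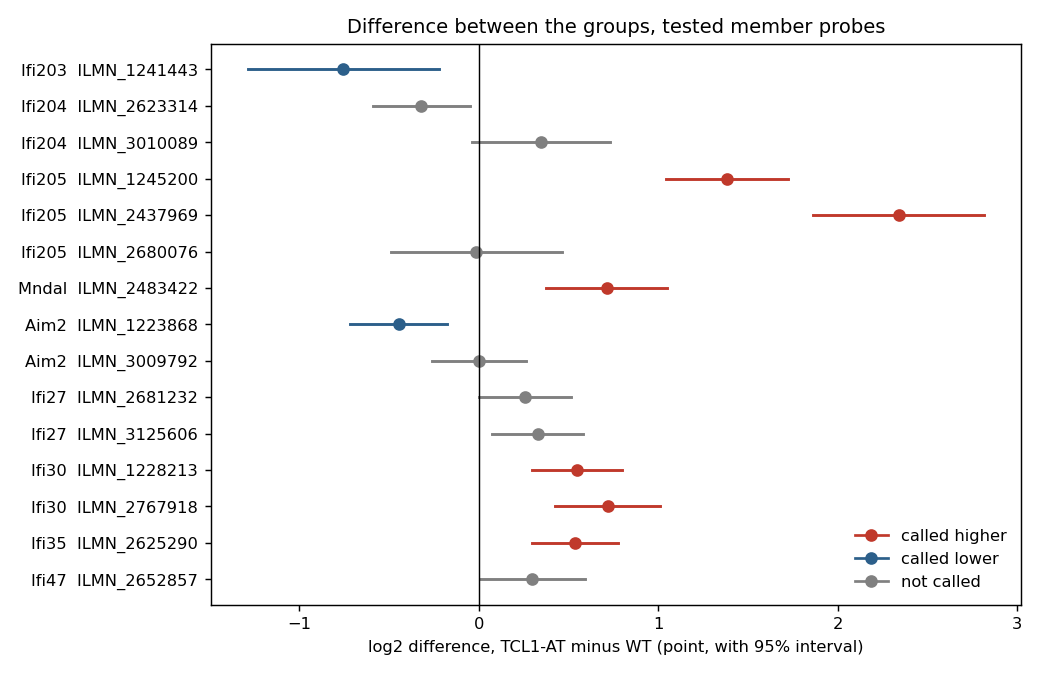
The x axis gives the log2 difference, TCL1-AT minus WT, for each of the 15 tested member probes, as a point with its 95% interval from limma's fit (5 arrays per group). The probes ILMN_2437969 and ILMN_1245200 of Ifi205 lie farthest to the right at 2.34 and 1.38, and the Ifi203 probe lies farthest to the left at -0.75.

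The monocyte genes Csf1r, Cx3cr1, Itgam, Adgre1, Lyz2, Cd14 and Fcgr1 were detected on all 10 arrays, Ccr2 was detected on 0 TCL1-AT and 2 WT arrays, and Ly6c2 was not analysed here. Of the 7 tested monocyte markers by the brightest probe 1 was called higher (Lyz2) and 1 lower (Adgre1, which encodes F4/80, by -0.91, with -1.31 and -0.10 at its other probes). The Lyz2 probes disagreed: the brightest was 0.29 higher, a call lost without TCL1-AT 2 or TCL1-AT 5, with median scaling and with the raw signal as a covariate (adjusted p = 0.055, 0.0536, 0.172 and 0.222), and the other 2 were lower, by -1.71 (adjusted p = 3.26e-06) and -0.73 (adjusted p = 0.000229). Markers of other cells moved with the groups. The summed linear signal of the B cell markers was 580 to 989 in TCL1-AT, highest in TCL1-AT 3, and 442 to 513 in WT. Of 4 tested 2 were called higher, Cd79b by 0.60 and Fcrla by 0.93, and Ms4a1 and Cd22 differed by -0.02 and -0.21. Fcrla lost its call without background correction (adjusted p = 0.0592) and with no filter on dim probes (0.0798). With the raw signal as a covariate Fcrla and Cd79b both lost theirs (0.0501 and 0.105). At their other tested probes Fcrla was 0.48 higher (adjusted p = 0.206) and Cd79b 0.56 higher (0.0174). Pax5, Blk and Cr2 were detected on no more than 2 arrays of either group and Ebf1 on 3 TCL1-AT and 1 WT arrays. Basophil, mast cell and eosinophil markers summed to 305 to 775 against 67 to 129 (3 of 3 tested called higher, Prg2, Cpa3 and Fcer1a). Mcpt8 was detected on 2 TCL1-AT and 1 WT arrays, and Ms4a2 and Epx on 1 TCL1-AT array each. Cpa3 and Fcer1a lost their calls with no filter on dim probes (adjusted p = 0.0597 and 0.0758) and with the raw signal as a covariate (0.206 and 0.249). The Cpa3 probe in the sum was detected on 5 TCL1-AT and 0 WT arrays. At its other probes Cpa3 was 0.26 higher (adjusted p = 0.368) and 1.15 higher (0.033). Fcer1a was at 7.28 and 7.36 in TCL1-AT 1 and 5 and at 4.88 to 5.62 in TCL1-AT 2 to 4. Erythroid markers summed to 1630 to 4594 against 264 to 1286 (2 of 2 higher). NK cell markers summed to 1168 to 3360 against 664 to 994 (1 of 3 higher, Prf1 by 1.48). Prf1 was much the brightest of the 3, at a mean of 11.03 in TCL1-AT, with Klrd1 at 5.76 and Klrb1c at 4.50. Klrd1 differed by -0.56 (adjusted p = 0.0866) and was called lower without TCL1-AT 2 (0.00414) and with the replicate block (0.0166). Klrb1c differed by 0.04, and Ncr1 was detected on 0 arrays. Red pulp macrophage markers summed to 1088 to 1297 against 690 to 845 (1 of 4 higher, Spic by 1.66, and 2 lower, Vcam1 by -0.54 and C1qb by -0.57). The calls of Vcam1 and C1qb were lost with the raw signal as a covariate (adjusted p = 0.212 and 0.392) and with no filter on dim probes (0.0741 and 0.0639), and that of Vcam1 also with median scaling (0.0616), without background correction (0.0605) and without TCL1-AT 2, TCL1-AT 3, TCL1-AT 5 or WT 4 (0.0506 to 0.0587). Dendritic cell markers summed to 135 to 236 against 133 to 168 (1 of 4 higher, Zbtb46 by 1.57, and 1 lower, Itgae by -0.73). T cell markers summed to 912 to 1005 in TCL1-AT and 1140 to 1424 in WT (3 of 5 lower, Cd3d by -1.45, Cd3g by -1.15 and Cd3e by -1.13). Cd8b1 was much the brightest of the 5, at a mean of 9.60 in TCL1-AT, and differed by -0.23 (adjusted p = 0.143). Its other probes were lower, by -2.48 (adjusted p = 1.01e-06) and -1.01 (0.000569). Cd2 differed by -0.49 (adjusted p = 0.124) and was called lower without TCL1-AT 3 or WT 4 (0.0374 and 0.0448). Neutrophil markers summed to 19872 to 37448 in TCL1-AT and 23203 to 36107 in WT (0 of 8 called by limma). Retnlg alone had an unadjusted p under 0.05 (0.014). It was called without TCL1-AT 1, TCL1-AT 3 or WT 2 (adjusted p = 0.041, 0.0387 and 0.0342), with a detection p under 0.01 (0.0493) and with the replicate block (0.0115). The median raw signal was higher in TCL1-AT (91.8 ± 1.19 against 85.0 ± 4.99 intensity units, SD, n = 5 each, exact permutation test, 2-sided, p = 0.0317), and TCL1-AT 4 stood apart on the second principal component (-37.7, the others at -16.6 or above). The part of these differences in the results below was not tested, and in bulk samples fewer cells of a type and less RNA per cell cannot be told apart.

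Ifi205 encodes the mouse PYHIN protein p205, which in mouse macrophages is known to control expression of the inflammasome adaptor Asc. At probe ILMN_2437969 the log2 signals were 10.52, 10.24, 10.02, 11.11 and 10.52 in TCL1-AT 1 to 5 and 8.24, 8.50, 8.32, 7.37 and 8.27 in WT 1 to 5. All TCL1-AT arrays lay above all WT arrays, and WT 4 was the lowest by a wide margin. The difference was 2.34 (SE 0.22, 95% interval 1.86 to 2.82, adjusted p = 5.04e-06). The second probe, ILMN_1245200, gave 7.60, 7.46, 7.11, 7.84 and 7.56 in TCL1-AT and 6.05, 6.47, 6.33, 5.70 and 6.10 in WT. The order of the arrays was much alike, with TCL1-AT 4 highest and WT 4 lowest, and the groups did not overlap. This probe rose by 1.38 (SE 0.16, adjusted p = 2.59e-05), or 2.61-fold. With the arrays' median raw signal in the model the differences were 2.53 (adjusted p = 0.000367) and 1.53 (adjusted p = 0.00107).

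The third Ifi205 probe, ILMN_2680076, behaved differently. Its signals were 6.63, 6.16, 5.66, 6.12 and 5.83 in TCL1-AT and 5.78, 6.72, 5.53, 6.36 and 6.07 in WT, and the groups overlapped throughout. The difference was -0.01 with a 95% interval from -0.49 to 0.46 (adjusted p = 0.974), which leaves out the size measured at the other 2 probes. All 3 probes are assigned to the same RefSeq transcript in the platform's annotation. Probe sequences were not used here, so whether a probe also binds transcripts of near-identical PYHIN genes, or a part of the transcript that differs between isoforms, was not tested.

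Mndal, the myeloid nuclear differentiation antigen-like gene, encodes a nuclear PYHIN protein. Probe ILMN_2483422 gave 8.75, 8.60, 8.21, 9.08 and 8.67 in TCL1-AT and 7.88, 7.66, 8.23, 7.82 and 8.17 in WT. The groups touched, since TCL1-AT 3 lay just below WT 3, and TCL1-AT 4 was again the highest array. The rise was 0.71 (SE 0.16, adjusted p = 0.00449), or 1.64-fold. The second probe, ILMN_1226619, was detected on 0 TCL1-AT and 3 WT arrays, at 4.10 to 4.34 and 4.23 to 4.47. It was not tested, the ranges overlapped, and no fold was formed.

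**Figure D2:**
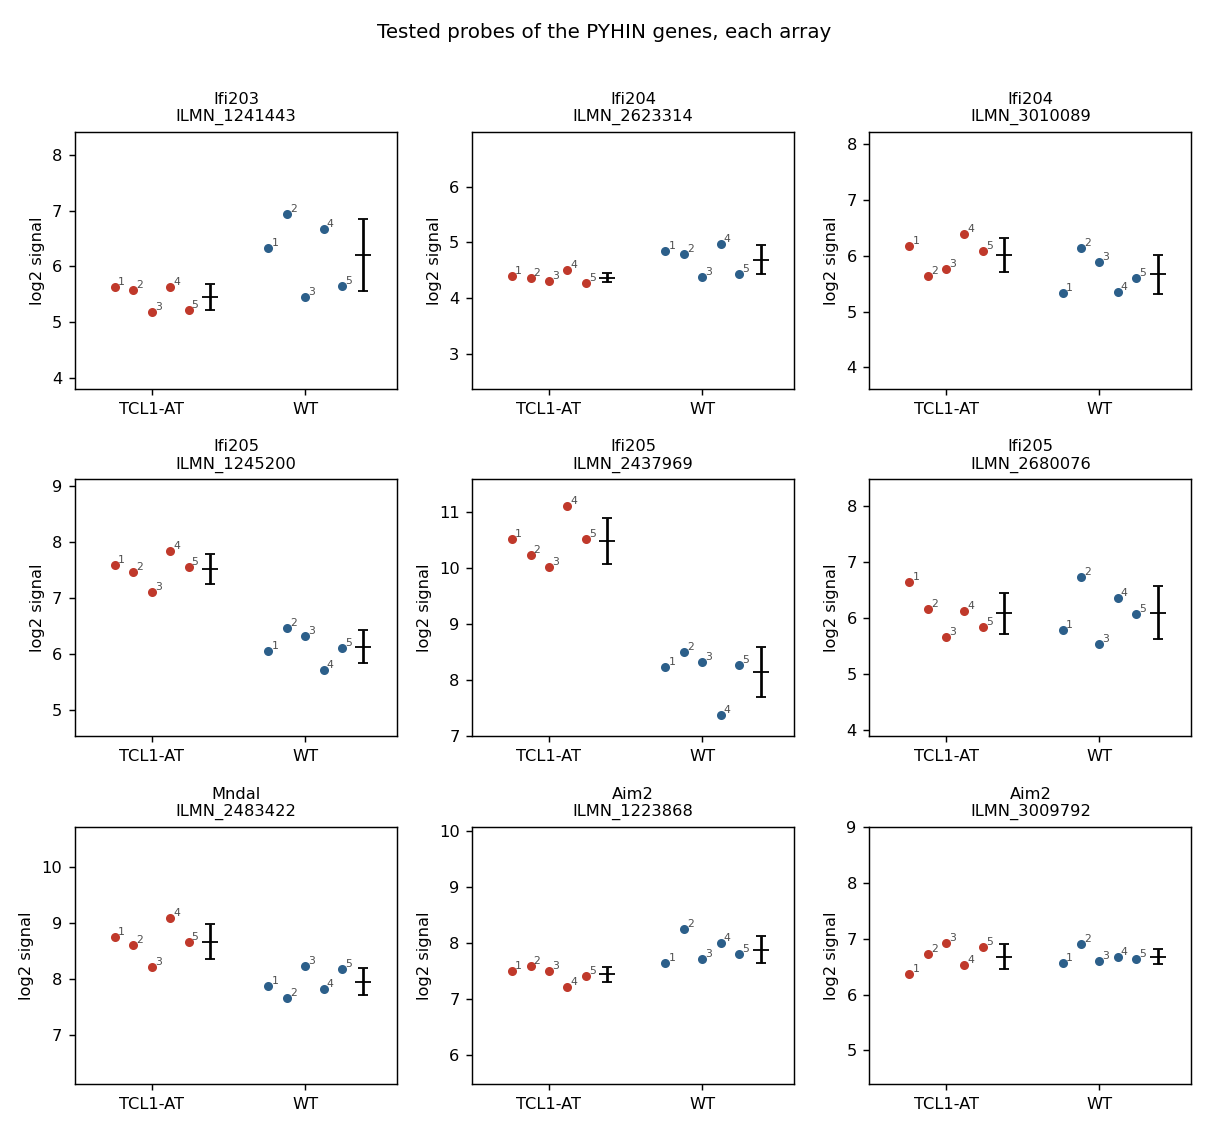
Each panel shows 1 tested probe of a PYHIN gene, with log2 signal on the y axis (the same span in every panel) and the 5 TCL1-AT arrays (red) beside the 5 WT arrays (blue), numbered by replicate, and the group mean ± SD in black. TCL1-AT and WT arrays are fully apart for ILMN_2437969 and ILMN_1245200 of Ifi205 and for ILMN_1223868 of Aim2, where TCL1-AT is lower.

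Aim2, the cytosolic DNA sensor of the inflammasome, had 2 tested probes. At ILMN_1223868 the signals were 7.50, 7.58, 7.49, 7.21 and 7.40 in TCL1-AT and 7.65, 8.24, 7.72, 8.00 and 7.80 in WT. Every TCL1-AT array was below every WT array, although TCL1-AT 2 and WT 1 differed by less than the spread within either group. The signal fell by 0.45 (SE 0.13, adjusted p = 0.0181), or 1.36-fold. The call was lost with median scaling between arrays (-0.52, adjusted p = 0.0881) and with the median raw signal as a covariate (-0.41, adjusted p = 0.178). Probe ILMN_3009792, assigned to the same transcript, gave 6.37 to 6.93 in TCL1-AT and 6.57 to 6.91 in WT. Its difference was 0.00 (95% interval -0.26 to 0.26, adjusted p = 0.999), so a fall of the size seen at the first probe lay outside this interval.

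Ifi203, a nuclear PYHIN protein of the mouse, was measured by a single probe, ILMN_1241443. Its signals were 5.64, 5.58, 5.18, 5.64 and 5.22 in TCL1-AT and 6.33, 6.94, 5.45, 6.67 and 5.65 in WT. WT 1, 2 and 4 lay above all TCL1-AT arrays, while WT 3 and WT 5 lay within or next to the TCL1-AT range. The signal fell by 0.75 (SE 0.25, 95% interval -1.29 to -0.22, adjusted p = 0.037). The call was lost without any 1 of TCL1-AT 2, TCL1-AT 3, TCL1-AT 5, WT 1, WT 2 or WT 4 (adjusted p = 0.0515, 0.0848, 0.0829, 0.0713, 0.0893 and 0.0951), with a difference of -0.57 without WT 2. It was also lost with median scaling (adjusted p = 0.0674), without background correction (adjusted p = 0.0502, difference -0.36) and without the filter on dim probes (adjusted p = 0.139).

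Ifi204, the mouse gene usually compared with human IFI16 and known for sensing DNA upstream of Sting, did not pass at either probe. ILMN_3010089 gave 6.18, 5.64, 5.77, 6.39 and 6.08 in TCL1-AT and 5.34, 6.15, 5.89, 5.34 and 5.61 in WT, a difference of 0.35 (95% interval -0.04 to 0.73, adjusted p = 0.171). The dim probe ILMN_2623314, detected on 3 TCL1-AT and 4 WT arrays, gave 4.41, 4.36, 4.31, 4.50 and 4.28 in TCL1-AT and 4.85, 4.80, 4.38, 4.98 and 4.44 in WT. The 2 probes differed in sign, and the dim one, at -0.32 (adjusted p = 0.0745), passed without WT 3 (adjusted p = 0.0294), without WT 5 (adjusted p = 0.0452) and with the raw signal as a covariate (-0.59, adjusted p = 0.0275).

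Ifi202b encodes a PYHIN protein without a pyrin domain that binds DNA and counteracts Aim2, and it is known for high expression in lupus-prone NZB mice and very low expression in C57BL/6. Its 3 probes gave log2 signals from 4.07 to 4.45, with no order between the groups. ILMN_2608350 and ILMN_3014753 were detected on 0 arrays, and ILMN_3085992 was detected on 1 TCL1-AT and 1 WT array. The lowest detected signal on an array was 4.26 to 4.32, so these probes give no level above background and no fold was formed.

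The annotated cluster from Aim2 to Ifi205 holds 13 protein-coding PYHIN genes and the pseudogene Ifi203-ps. The other genes of the family were Ifi202c, Ifi206, Ifi207, Ifi208, Ifi209, Ifi211, Ifi213 and Ifi214, of which 4 had a tested probe. By each gene's brightest tested probe 2 of these 4 rose and 0 fell, with a median of 0.47. Of all 11506 named genes with a tested probe 12.7% rose and 16.5% fell by the same measure.

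Ifi213 rose at both of its probes. ILMN_2526938 gave 9.51, 9.47, 9.33, 9.67 and 9.65 in TCL1-AT and 8.27, 8.08, 8.39, 7.81 and 8.40 in WT, 1.34 higher (adjusted p = 5.19e-06), and ILMN_1219896 was 0.83 higher (adjusted p = 0.0014). Neither probe overlapped between the groups, though the call of the brighter one was lost with the raw signal as a covariate (adjusted p = 0.0641). Ifi214 was 0.50 higher (adjusted p = 0.0485) at 1 of its 3 probes, with overlapping groups, and the others were not tested. This call held without TCL1-AT 3 and without WT 2 and was lost without any other single array (adjusted p up to 0.113, without TCL1-AT 1). It was also lost with median scaling (adjusted p = 0.169), with no filter on dim probes (0.139) and with the raw signal as a covariate (0.21). Ifi207 was 0.44 higher (adjusted p = 0.0504) and passed without TCL1-AT 2, WT 3 or WT 5 (adjusted p = 0.0438, 0.036 and 0.0376). It also passed without background correction (adjusted p = 0.0376), with an offset of 50 (0.034) and with a detection p under 0.01 (0.0472). Ifi211 differed by 0.23 (adjusted p = 0.257). Ifi209 was detected on 2 TCL1-AT and 0 WT arrays. No array values of Ifi202c, Ifi206 and Ifi208 were used here.

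**Figure D3:**
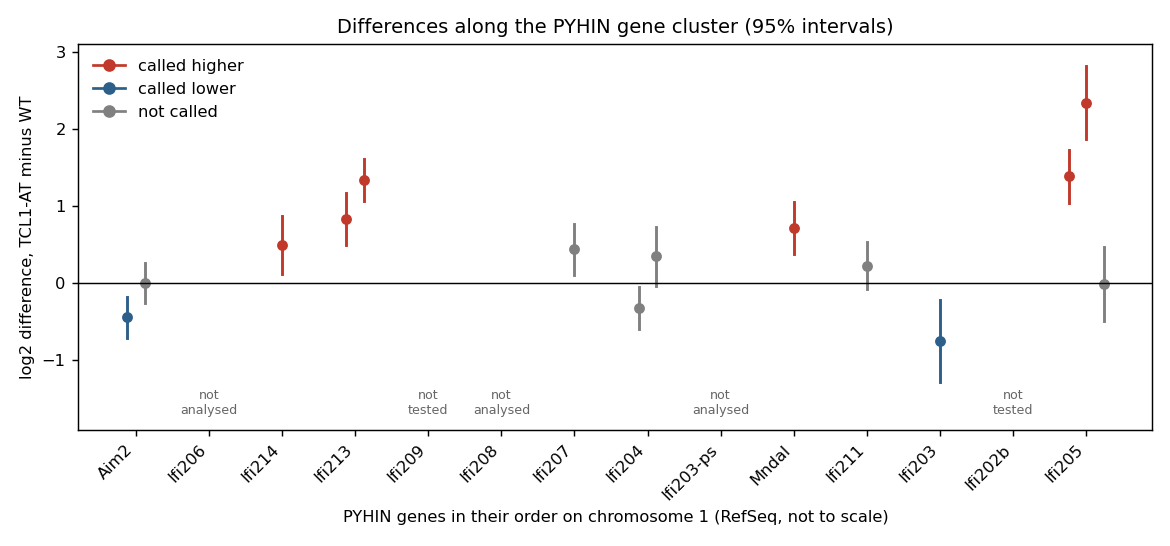
PYHIN genes stand on the x axis in their order on chromosome 1 (not to scale), and the y axis gives the log2 difference of each tested probe, TCL1-AT minus WT, with its 95% interval. Called rises stand at Ifi214, Ifi213, Mndal and Ifi205 and called falls at Aim2 and Ifi203, and the probes of Aim2, Ifi204 and Ifi205 disagree within the gene.

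The promoters are shown because the members that moved include genes with near-identical starts. RefSeq windows from 250 bases before to 50 bases after the annotated start (GRCm38.p6) were held for 8 of the 10 member genes, all but Ifi204 and Ifi27. They were searched on both strands for the core of the interferon-stimulated response element (GAAA and GAAA with any 2 bases between them), a motif known from promoters of interferon-induced genes, and for the gamma-activated site, TTCNNNGAA. The first stood in 3.44% and the second in 8.3% of 32851 promoter windows of the mouse genome. Of the 12 protein-coding PYHIN genes with a window 9 held the core, namely Ifi203, Ifi205, Ifi206, Ifi207, Ifi208, Ifi211, Ifi213, Ifi214 and Mndal, and Aim2, Ifi202b and Ifi209 held no match in these windows. Genes of a duplicated family share sequence, so they are not independent cases. In each of the 9 genes the core below lay on the gene's own strand, and its first base was 35 (Ifi203), 134 (Ifi205), 36 (Mndal), 40 (Ifi206), 41 (Ifi207), 58 (Ifi208), 37 (Ifi211), 73 (Ifi213) and 79 (Ifi214) bases before the start. The 60 bases around each core read as follows, 5′ to 3′ on the gene's strand, with the core in capitals.
Ifi203, chr1:173942493-173942552, minus strand: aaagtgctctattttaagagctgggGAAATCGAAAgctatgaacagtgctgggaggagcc
Mndal, chr1:173880189-173880248, minus strand: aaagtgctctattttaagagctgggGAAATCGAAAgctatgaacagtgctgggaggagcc
Ifi205, chr1:174031855-174031914, minus strand: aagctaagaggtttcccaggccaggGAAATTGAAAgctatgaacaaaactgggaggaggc
Ifi211, chr1:173913049-173913108, minus strand: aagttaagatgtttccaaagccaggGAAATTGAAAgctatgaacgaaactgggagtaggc
Ifi207, chr1:173741816-173741875, minus strand: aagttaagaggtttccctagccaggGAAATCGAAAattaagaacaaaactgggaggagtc
Ifi206, chr1:173491324-173491383, minus strand: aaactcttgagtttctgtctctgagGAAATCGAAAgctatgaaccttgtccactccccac
Ifi208, chr1:173673582-173673641, plus strand: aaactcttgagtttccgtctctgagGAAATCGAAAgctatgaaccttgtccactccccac
Ifi213, chr1:173599311-173599370, minus strand: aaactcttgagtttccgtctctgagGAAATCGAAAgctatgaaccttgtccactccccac
Ifi214, chr1:173536002-173536061, minus strand: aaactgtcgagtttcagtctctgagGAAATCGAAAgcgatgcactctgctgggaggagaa

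Among these 9 stretches 7 carried GAAATCGAAA and 2 carried GAAATTGAAA, and 21 of the 60 positions were the same in all. The stretch of Ifi203 was letter for letter that of Mndal, and that of Ifi208 was that of Ifi213, which leaves 7 distinct sequences. Over the aligned part of the longer windows Ifi203 and Mndal shared 282 of 299 positions (94.3%). Their signals moved in opposite directions, with Ifi203 called lower (-0.75) and Mndal higher (0.71). Ifi207 and Ifi211 hold the core and were not called with all arrays. A link between the core and the differences was not tested. Ifi203 and Mndal each had a further annotated start. For Mndal the window of that other start held a core on the opposite strand, 54 bases before it, and for Ifi203 the window of the other start held none.

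The 250 bases before the start of Ifi205, the member with the largest rise, are given because its core lies farther from the start than in the other genes. They lie at chr1:174031756-174032005 on the minus strand, with the core in capitals.
Ifi205: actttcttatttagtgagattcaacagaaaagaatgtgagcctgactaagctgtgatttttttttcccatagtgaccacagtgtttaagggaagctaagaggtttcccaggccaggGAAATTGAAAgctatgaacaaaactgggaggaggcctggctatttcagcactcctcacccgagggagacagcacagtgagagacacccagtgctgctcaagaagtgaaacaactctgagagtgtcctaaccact

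Ifi205 also held a second core, on the opposite strand, 23 bases after the start. The gamma-activated site was found in 2 member genes. In Ifi202b it lay 148 bases before the start, within chr1:173982959-173983017 on the minus strand (site in capitals).
Ifi202b: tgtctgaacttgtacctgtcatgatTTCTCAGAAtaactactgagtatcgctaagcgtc

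In Ifi35 the site lay 7 bases after the start. Neither motif was found in the windows of Aim2, Ifi30 and Ifi47. A match describes the letters of a window, and no binding was measured here.

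**Figure D4:**
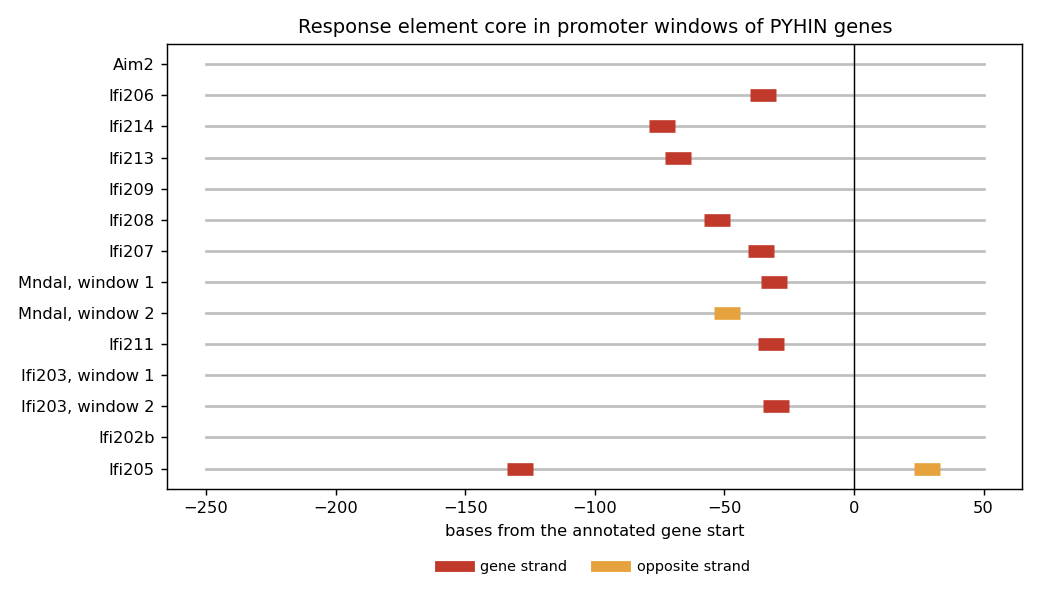
Grey lines are the promoter windows of the PYHIN genes, in their chromosome order, with the distance from the annotated start in bases on the x axis and coloured blocks where the response element core matched. The core of Ifi205 on its own strand lies 134 bases before the start, and those of the other 8 genes lie 35 to 79 bases before it.

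Outside the PYHIN genes, 3 of 6 tested probes were called higher and 0 lower. Ifi30, the lysosomal thiol reductase that opens disulfide bonds of antigens before they load onto MHC class II, rose at both probes. ILMN_2767918 gave 10.56, 10.78, 10.67, 11.19 and 10.59 in TCL1-AT and 10.04, 9.95, 10.12, 9.79 and 10.29 in WT, a rise of 0.72 (SE 0.14, adjusted p = 0.00148). ILMN_1228213 gave 11.96, 11.98, 12.03, 12.33 and 11.84 against 11.24, 11.62, 11.51, 11.44 and 11.60, a rise of 0.55 (SE 0.12, adjusted p = 0.00332). Neither probe overlapped between the groups, and TCL1-AT 4 was the highest array at both. The second call was lost with median scaling (0.44, adjusted p = 0.0711).

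Ifi35, a leucine zipper protein that pairs with Nmi, gave 9.36, 9.41, 9.31, 9.65 and 9.34 in TCL1-AT and 8.97, 8.59, 8.96, 8.86 and 9.01 in WT. The groups did not overlap, and the rise was 0.54 (SE 0.11, adjusted p = 0.00274). Nmi itself, detected on 3 arrays of each group, differed by -0.10 (adjusted p = 0.675).

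Ifi27, a small membrane protein of mitochondria, had 2 tested probes. ILMN_3125606 gave 10.09, 10.07, 10.51, 9.88 and 10.27 in TCL1-AT and 9.80, 9.94, 9.75, 9.87 and 9.81 in WT, 0.33 higher with TCL1-AT 4 inside the WT range (adjusted p = 0.0531). ILMN_2681232 gave 9.55, 9.71, 9.86, 9.27 and 9.62 against 9.30, 9.49, 9.38, 9.39 and 9.16, 0.26 higher (adjusted p = 0.125). TCL1-AT 4 was the lowest of its group at both. Without it the differences were 0.40 (adjusted p = 0.0181) and 0.34 (adjusted p = 0.0297), and the members then counted 8 higher and 2 lower. The first probe also passed without background correction (adjusted p = 0.0241), with an offset of 50 (adjusted p = 0.0255) and with a detection p under 0.01 (adjusted p = 0.0477).

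Ifi47 belongs to the immunity-related GTPases (IRG), which in the mouse act on vacuoles of intracellular pathogens. It gave 9.74, 9.57, 9.47, 9.86 and 9.86 in TCL1-AT and 9.31, 9.68, 9.43, 9.00 and 9.59 in WT. The groups overlapped, with WT 2 above TCL1-AT 2 and 3, and the difference was 0.30 (95% interval 0.00 to 0.59, adjusted p = 0.124).

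**Figure D5:**
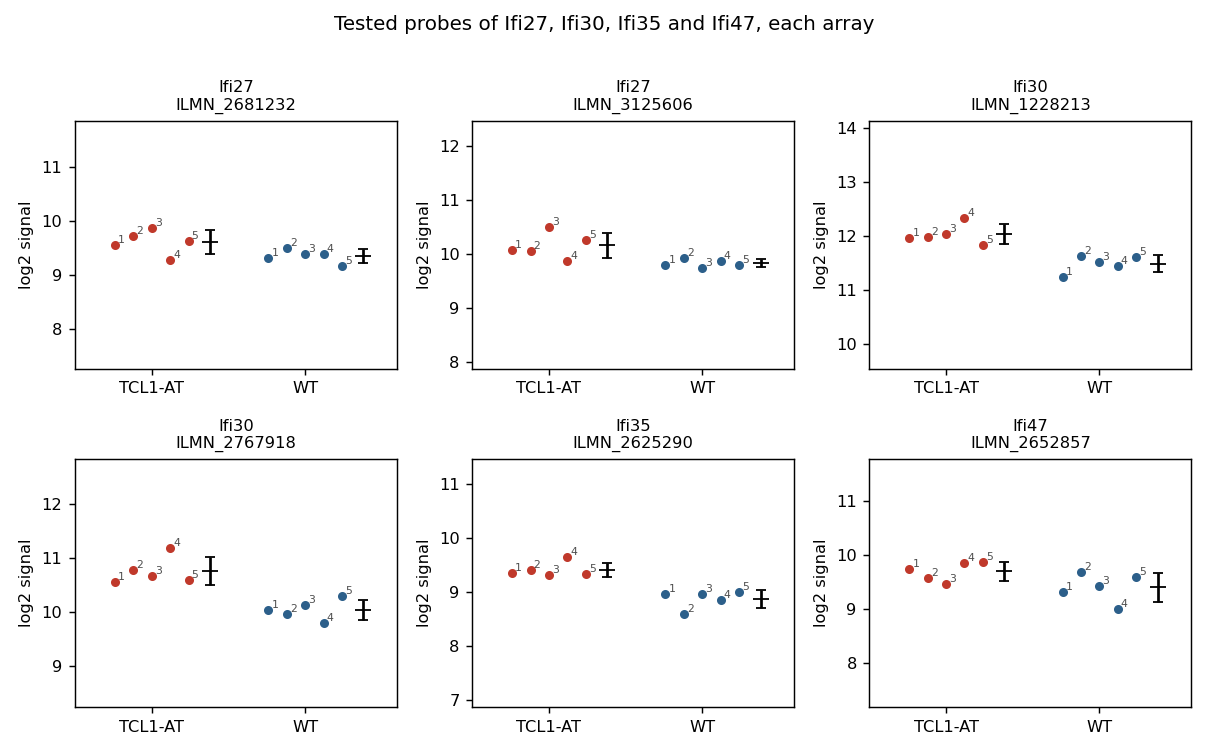
Each panel shows 1 probe of Ifi27, Ifi30, Ifi35 or Ifi47, with log2 signal on the y axis (the same span in every panel), single arrays numbered by replicate in red (TCL1-AT) and blue (WT), and the group mean ± SD in black. Both Ifi30 probes and the Ifi35 probe separate the groups, whereas TCL1-AT 4 falls among the WT arrays for Ifi27.

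Other genes with an Ifi name were Ifi27l2a, Ifih1, Ifi44l and Ifi27l2b. Ifi27l2a was 0.36 higher (adjusted p = 0.0247), with TCL1-AT 4 (12.62) inside the WT range of 12.55 to 12.64. Its call was lost without TCL1-AT 2, TCL1-AT 3, TCL1-AT 5 or WT 5 (adjusted p = 0.0645, 0.0515, 0.0629 and 0.053), with median scaling (0.313), with the raw signal as a covariate (0.243) and with replicate number as a block (0.0532). Ifih1, which encodes the RNA sensor Mda5, differed by -0.14 (adjusted p = 0.50). Ifi44l and Ifi27l2b were detected on 0 arrays.

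Genes that act with the PYHIN members are given by each gene's brightest tested probe, to be read against 12.7% higher and 16.5% lower among all named genes. Of 8 inflammasome genes 3 rose and 0 fell (median 0.27). Il1b, the interleukin that caspase-1 matures, rose by 2.12 (adjusted p = 8.66e-07), and the inflammatory caspase Casp4 by 0.72 (adjusted p = 0.000244), although 2 further Casp4 probes did not pass (0.12 and 0.08). Casp1 itself was 0.32 higher (adjusted p = 0.0161), a call lost with median scaling (adjusted p = 0.353), without TCL1-AT 5 (0.0509), with the replicate block (0.0516) and with the raw signal as a covariate (0.15). Gsdmd, the pore former cut by these caspases, differed by 0.22 (adjusted p = 0.082). It passed without background correction (adjusted p = 0.00572), with an offset of 50 (0.0152) and with no filter on dim probes (0.0112). Its other probes did not pass (0.36 and -0.02). The adaptor Pycard, which links Aim2 to caspase-1, differed by 0.10 (adjusted p = 0.587).

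Of 11 genes of cytosolic DNA sensing 6 rose and 0 fell (median 0.31). They included the interferon regulator Irf7, 1.27 higher (adjusted p = 2.95e-05), the kinase Ikbke, 1.22 higher (adjusted p = 3.54e-05), the nucleic acid sensor Zbp1, 0.93 higher (adjusted p = 0.000526), and Cgas, the enzyme that makes the Sting ligand, 0.56 higher (adjusted p = 0.00124, with 0.12 at its other probe). The other 2 were Irf3 and Trex1, 0.31 and 0.37 higher (adjusted p = 0.0283 and 0.0235). Both calls were lost without TCL1-AT 5 (adjusted p = 0.0693 and 0.0503) or WT 4 (0.0657 and 0.0582), with median scaling (0.238 and 0.178), the replicate block (0.0705 and 0.0651) and the raw signal as a covariate (0.174 and 0.0806), and that of Irf3 also without TCL1-AT 2, TCL1-AT 3 or WT 2 (0.0597, 0.061 and 0.0578). These losses concern the brightest probes. At its other probes Trex1 was 0.535 and 0.47 higher (adjusted p = 0.00516 and 0.0221). Irf3 was 0.285 and 0.21 higher at its own (adjusted p = 0.0386 and 0.125). Sting1 differed by 0.20 (adjusted p = 0.158), and the interferon gene Ifnb1 was detected on 0 arrays.

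Interferon signalling was measured by 13 genes, of which 5 rose and 2 fell (median 0.17). Socs3 and Usp18, which restrain cytokine and type I interferon receptors, rose by 1.53 (adjusted p = 3.05e-07) and 0.66 (adjusted p = 0.000304), the kinase Jak2 by 0.64 (adjusted p = 0.000488) and Stat2 by 0.64 (adjusted p = 0.00109). The receptor chain Ifnar2 was 0.38 lower (adjusted p = 0.0372) and the receptor kinase Tyk2 0.29 lower (adjusted p = 0.0493). Both falls were lost with median scaling (adjusted p = 0.0851 and 0.138) and with the raw signal as a covariate (0.127 and 0.211). That of Ifnar2 was also lost with no filter on dim probes (0.0697). The Ifnar2 call held without TCL1-AT 1, TCL1-AT 4 or WT 3 and was lost without any other single array (adjusted p up to 0.0965, without TCL1-AT 3). That of Tyk2 held without TCL1-AT 2 or WT 3 and was lost without any other (adjusted p up to 0.115, without TCL1-AT 3). At their other probes Ifnar2 differed by -0.71 and -0.36 (adjusted p = 0.0144 and 0.0503) and Tyk2 by -0.25 and -0.21 (0.236 and 0.294).

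The IRG genes that accompany Ifi47 counted 3 higher and 0 lower of 5 (median 0.65), with Igtp 1.18 higher (adjusted p = 3.03e-06), Irgm2 0.65 higher (adjusted p = 0.00143) and Tgtp1 0.77 higher (adjusted p = 0.00649, lost with the raw signal as a covariate at 0.352). With all arrays Irgm1 was 0.28 higher at its brightest probe (adjusted p = 0.0734) and Iigp1 0.36 higher (adjusted p = 0.134). At its other probes Irgm1 was 0.58 higher (adjusted p = 0.00141), which passed with all arrays, and 0.21 higher (0.543). Without TCL1-AT 4, which was the lowest TCL1-AT array at Irgm1, Irgm2, Iigp1 and Tgtp1, all 5 were called higher. Without that array 2693 of all tested probes were called higher, against 2458 with all arrays. No other single array left out gave a call at the brightest Irgm1 probe or at Iigp1 (adjusted p up to 0.177 and 0.307). The brightest Irgm1 probe also passed without background correction (adjusted p = 0.0262) and with an offset of 50 (0.0309). The endosomal antigen processing genes that accompany Ifi30 counted 1 higher and 2 lower of 7 (median -0.19). Cd74, the MHC class II chaperone, rose by 1.31 (adjusted p = 1.98e-06), while the protease Lgmn was 0.64 lower (adjusted p = 0.0125) and the peptide exchange chain H2-DMa 0.41 lower (adjusted p = 0.015), both lost with the raw signal as a covariate (adjusted p = 0.214 and 0.136). Ctss, the cathepsin that trims Cd74, differed by -0.68 (adjusted p = 0.0511) and passed without WT 1, WT 3 or WT 5 (adjusted p = 0.0361, 0.0338 and 0.0367).

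The variation within the groups was compared last. Deviations from the group means over the 10 arrays, compared for all 105 pairs of tested member probes, correlated at 0.929 between the 2 rising Ifi205 probes. Ifi47 followed the same pattern, at 0.878 with ILMN_2437969 of Ifi205. Ifi203 instead went with the dim Ifi204 probe (0.887) and with the Ifi205 probe that did not differ (0.782). The first Aim2 probe and Ifi35 deviated in opposite directions (-0.87), as did Mndal and the Ifi27 probe ILMN_2681232 (-0.869). The probes share arrays and normalization, and these coefficients are descriptions of 10 arrays. Among all other genes Mgst1 (0.965), Gpr35 (0.949) and 2410017P09Rik (0.948) had the deviations most like those of ILMN_2437969, and their own differences between the groups were -1.16, -0.05 and -1.08.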

How the data were processed

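Total RNA of 5 TCL1-AT and 5 WT samples was hybridised to 1 array each. Per the file headers, the deposited table holds for every array and for all 46237 probes a linear signal intensity with its detection p-value. The authors' series matrix holds log2 values; no source used here states how they were made, or names the scanner, and they differed from the values used here by at most 0.000428. Every value column belonged to 1 of the 10 samples, and no arrays held identical values.

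Signals were corrected and quantile-normalized with neqc of limma 3.58.1 (R 4.3.3, offset 16), which infers negative controls from the detection p-values. Kept were 20241 probes that reached detection (p under 0.05) on 5 or more arrays. The groups were compared by lmFit and eBayes of limma, 2-sided, with Benjamini-Hochberg adjustment over all kept probes. In simulated data of these 20241 probes the test recovered 90% of 100 probes changed by 1 and 35% of 100 changed by 0.5 on the log2 scale. Of its calls 5.3% were false. No other probes were changed there and the noise was independent between probes, whereas 27.0% of the measured probes were called. These shares may therefore not hold for the measured data. The offset makes folds of dim probes too small, and a probe that only part of a group's arrays detected is given no fold. The number of arrays limits the precision.

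Genes were named from the platform's annotation (35784 probes with 1 symbol, 0 with several and 10453 not listed), with symbols updated through a RefSeq table. Promoters and gene order are RefSeq's for GRCm38.p6, and no build is given for the probes. A gene with several probes stands in a list by its brightest tested probe. All member probes and all measured other PYHIN and Ifi-named genes are named. Of the inflammasome, DNA sensing, interferon signalling, IRG and antigen processing lists up to 4 genes with the lowest p are named. Markers of other cells are named only in part, and a further list, of interferon-stimulated genes, is not described here. Pycard, Sting1, Ifnb1, Iigp1, Nmi, Ifnar2, Tyk2, Irf3, Trex1 and the markers of other cells were named after their values were seen. Members and lists were chosen with earlier results of these data known. Samples with the same replicate number did not deviate together (correlations -0.183 to 0.185), so the numbers were not used to pair them. Alternatives were the series matrix, median scaling, no background correction, an offset of 50, other filters, a replicate block, the median raw signal as a covariate, 1 probe per gene and leaving out each array.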

Additional observations from a re-analysis of the deposited data

Results flagged for a closer look

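In 38 groups of 5 arrays (19 member probes in 2 groups) 3 arrays lay apart from the other 4 of their group, measured as the gap to the nearest array over the group's range. Chance gives about 1 in 20 groups. For Ifi205 probe ILMN_2437969 WT 4 was low (7.37, the others 8.24 to 8.50, gap 0.771 of the range), and without it the difference stayed called. For Ifi35 TCL1-AT 4 was high (9.65, the others 9.31 to 9.41, gap 0.71). For Ifi202b probe ILMN_3085992, at background, WT 2 was high (4.42, the others 4.14 to 4.21, gap 0.759).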

How the results depend on the processing

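Both rising Ifi205 probes, Mndal, Ifi30 probe ILMN_2767918 and Ifi35 stayed called higher under every alternative run that gave them a value. Member probes called lower numbered 0 with median scaling, 1 without background correction and 1 without the filter on dim probes, and 1 to 3 when single arrays were left out; those called higher numbered 5 to 8 over all probe-level alternatives. All tested probes counted 1419 higher with median scaling, and 1102 higher and 1340 lower with the raw signal as a covariate; leaving out arrays gave 1957 to 2693 higher and 2431 to 3043 lower. The cause was not tested. The sign of the Aim2 probe ILMN_3009792 turned with median scaling (-0.0591) and among the arrays left out (-0.0624 to 0.0763), as did that of Ifi205 probe ILMN_2680076 (-0.1536 to 0.1437). The difference in median raw signal was 5.66 to 8.57 with arrays left out (exact permutation p = 0.0159 to 0.0635), and that in detected probes, 0.261 percentage points, was -0.0776 to 0.632 and negative without WT 5. With the replicate number as a block, 6 member probes were higher and 2 lower, and all probes counted 2035 and 2566; no member call changed, and 1 of 5 TCL1-AT samples correlated best with its own number. Among the other genes named, Ifi214, Ifi27l2a, Casp1, Irf3, Trex1, Tyk2, Lyz2 and Vcam1 lost their call under the block. Ctss, Klrd1 and Retnlg gained one. Near background, as for Ifi202b, the arrays cannot order the groups.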

Other observations

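Single arrays held the edges of the groups at many member probes. TCL1-AT 4 was the highest TCL1-AT array at 8 of the 15 tested probes and the lowest at 3, and TCL1-AT 3 was the lowest at 7. WT 2 was the highest WT array at 11 of the 15.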
